A study of Mus musculus with 7 samples.

Results

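Transcripts of 9 genes of antigen presentation by MHC class I and of the interferon response were measured by single-nucleus RNA-seq (snRNA-seq) in cultured BB-p53n OPCs, the cells that were later implanted into mouse brains to form gliomas. The genes were chosen by name (*B2m*, *H2-K1*, *H2-D1*, *Tap1*, *Tap2*, *Psmb8*, *Nlrc5*, *Irf1* and *Cd274*), and all 9 are among the 33696 genes of the count table. The cells were primary oligodendrocyte progenitor cells (OPCs) that were taken from pups of *Trp53* fl/fl C57BL/6 mice of either sex by binding to an antibody against CD140a, the PDGF receptor alpha. They were transduced with a PDGFB-IRES-CRE retrovirus, which deletes *Trp53* through Cre and drives PDGFB, so every cell of the culture was exposed to the same virus, floxed allele and transgene. The nuclei form 1 library with no replicate, and OPCs without the deletion or the virus were not analysed here. Brains collected after implantation, 3 with early-stage and 3 with late-stage tumors, are not analysed here either, so all levels are those before implantation and no test between conditions was run.

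MHC class I molecules sit on the surface of nearly all nucleated cells and show peptides from inside the cell to CD8+ T cells, while cells without them can be attacked by NK cells. A class I molecule is a heavy chain, encoded in the mouse by genes such as *H2-K1* and *H2-D1*, bound to the invariant light chain beta-2 microglobulin (*B2m*). Peptides are cut by the proteasome, in which interferon can exchange the catalytic subunits for those of the immunoproteasome such as *Psmb8*, and are pumped into the endoplasmic reticulum by the transporter of *Tap1* and *Tap2*. NLRC5 acts at class I promoters, IRF1 carries interferon signals to the same genes, and PD-L1 (*Cd274*) is an interferon-inducible ligand that restrains T cells. Cells of the normal brain parenchyma are known for low class I levels in the absence of inflammation.

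The promoters of the 3 genes that make up the class I molecule are shown because the heavy chain genes, although close relatives, differed in level between groups of nuclei. Each run holds the 200 bases before the transcription start in RefSeq (table on GRCm38.p6), 5′ to 3′ on the strand of the gene, and was found at 1 place in GRCm39 by an exact match of the table's window. The *H2-K1* run lies at chr17:34219308-34219507 on the minus strand and is that of the more downstream of the starts listed for the gene. The *H2-D1* run lies at chr17:35481870-35482069 and the *B2m* run at chr2:121977968-121978167, both on the plus strand and both inside the wider gene models of GENCODE. Capitals mark matches of 4 motifs on either strand, which do not overlap one another here.
H2-K1: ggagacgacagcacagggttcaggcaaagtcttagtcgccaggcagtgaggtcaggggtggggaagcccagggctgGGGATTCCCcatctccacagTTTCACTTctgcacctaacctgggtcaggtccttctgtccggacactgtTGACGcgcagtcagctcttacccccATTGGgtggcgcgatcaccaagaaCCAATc
H2-D1: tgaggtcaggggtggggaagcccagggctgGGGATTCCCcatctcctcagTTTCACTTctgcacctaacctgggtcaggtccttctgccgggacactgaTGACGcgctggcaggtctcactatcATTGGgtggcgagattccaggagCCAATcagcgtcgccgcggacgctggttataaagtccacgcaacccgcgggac
B2m: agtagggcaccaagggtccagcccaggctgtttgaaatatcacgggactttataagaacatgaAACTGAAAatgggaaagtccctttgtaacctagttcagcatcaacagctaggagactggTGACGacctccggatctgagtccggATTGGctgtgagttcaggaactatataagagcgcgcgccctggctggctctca

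The motifs were picked after the sequences had been seen: the core AANNGAAA read by IRF proteins, the kappa B run GGGATTCCC, the CRE core TGACG and the box CCAAT. The *H2-K1* and *H2-D1* windows of 300 bases, 250 before and 50 after the start, aligned over 252 bases of which 88.1% were identical, against 60.3% of 257 for *H2-K1* and *B2m*. Both heavy chain promoters hold all 4 motifs in the same order: kappa B, the IRF core on the opposite strand, the CRE core, and CCAAT on either strand. In *H2-K1* the kappa B run spans -124 to -116 and the IRF core -104 to -97 from the start. In *H2-D1* the same motifs span -170 to -162 and -150 to -143. The *B2m* window holds the IRF core at -137 to -130, the CRE core and CCAAT, and no kappa B run in these letters. Of all 32851 windows of the table, 23.9% hold the IRF core, 0.353% the kappa B run, 20.8% the CRE core and 37.4% CCAAT. Of the 7 members with a window, *H2-K1*, *H2-D1* and *Irf1* hold the kappa B run. *Irf1* also holds CCAAT, *Tap1* holds the CRE core and CCAAT, *Cd274* holds the IRF core, and *Psmb8* holds none of the 4. The letters are a description of the windows and were not tested as sites. *Tap2* and *Nlrc5* have no entry in the table.

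Of 10047 deposited barcodes, 8917 had 2000 to 8000 detected genes and were kept. They held 141138093 UMIs, or counted transcript molecules, with a median of 13771 per nucleus. The label was checked against 8 OPC markers, which summed to 5369 CPM (the UMIs of a gene per 1000000 UMIs), and *Pdgfra* alone stood at 256 CPM. The 13 markers of microglia and leukocytes summed to 8.32 CPM, of which *P2ry12* gave 5.25, with *C1qa*, *C1qc* and *Cd3e* at 0 and *Ptprc* at 0.213. Fibroblast and pericyte markers summed to 0.588 CPM and endothelial markers to 11.02, with *Cldn5* at 0. Clustering, with the parameters of the methods, gave 8 clusters of 182 to 1810 nuclei. The study kept fewer nuclei and shows fewer clusters. In 1954 nuclei at most 5% of the UMIs were mitochondrial. Values in this smaller set are given for part of the results only, so a result without them need not hold there. Cluster 1, which carries most of what follows, held 1733 nuclei and went partly against the label: its 8 OPC markers summed to 1808 CPM against 6032 in the other nuclei, with *Pdgfra* at 19.4 against 300 CPM, *Sox10* at 5.87 against 102 and *Olig2* at 212 against 308. It is therefore called by its number, and its defining genes by ratio were *Adm*, *Grin2a* and *Tsix*. *Xist*, transcribed from the inactive X of female cells, had a UMI in 94.0% of its nuclei and in 0.559% to 36.3% of those of the other clusters, with nuclei thinned to 5000 UMIs. A UMI of 4 Y-linked genes was found in 2.41% of the nuclei of cluster 1, in 68.4%, 30.3% and 22.4% of clusters 3, 0 and 5, and in 2.29% to 4.63% of clusters 2, 4, 6 and 7, so low *Xist* did not go with Y-linked UMIs in every cluster.

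The 9 genes together made up 56.6 CPM (95% exact Poisson interval 55.4 to 57.9, 7990 UMIs), and 67.7% of these UMIs were of *B2m*. Intervals here cover counting error only, and a gene at 0 is given the limit of 3 counts of the total, which is lower than the upper end of the two-sided interval. With every nucleus thinned at random to 5000 UMIs, which left out 157 shallower nuclei, 24.8% of nuclei had a UMI of any member, against 53.7% without thinning. After thinning 1988 nuclei had 1 member, 170 had 2, 13 had 3 and 2 had 4 or more, while 6587 had none. Class I transcripts were thus sparse in nuclei at this depth, and a nucleus without a UMI is not a nucleus without the transcript. Levels in whole cells were not measured here.

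*B2m*, the light chain (chromosome 2, 121977957 to 121983594, GRCm39), was the most abundant member at 38.3 CPM (37.3 to 39.4) and was found in 17.9% of thinned and 42.5% of unthinned nuclei. The classical heavy chains were several times lower. *H2-K1* (chromosome 17, 34214987 to 34219321) stood at 6.28 CPM (5.87 to 6.70) and was found in 3.37% of thinned nuclei. *H2-D1* (chromosome 17, 35481691 to 35486475) stood at 4.74 CPM (4.39 to 5.11) and was found in 2.16%. The intervals of the heavy chains over all nuclei do not overlap each other or that of *B2m*. The order of the heavy chains rests on cluster 1, without which *H2-K1* stood at 3.09 CPM and *H2-D1* at 4.98. In nuclei of at most 5% mitochondrial UMIs they were close, at 3.56 and 3.49 CPM. In the last 500 bases of their transcripts, 4.16% of the 90-base windows of *H2-K1* and 7.87% of those of *H2-D1* occur in other class I genes, so a small part of their reads could not be told from those of relatives, and no such window was found for the other members.

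The genes of peptide supply were rarer still. *Tap2*, a subunit of the peptide transporter (chromosome 17, 34422501 to 34435829), had 215 UMIs or 1.52 CPM (1.33 to 1.74), and *Tap1*, the other subunit (chromosome 17, 34405996 to 34416199), had 106 UMIs or 0.751 CPM (0.615 to 0.908). *Tap1* was lower, at 0.299 CPM, in nuclei of at most 5% mitochondrial UMIs, where *Tap2* stood at 1.20, and without cluster 1 the pair stood at 0.555 and 0.983 CPM. *Psmb8*, the immunoproteasome subunit that replaces *Psmb5* (chromosome 17, 34416690 to 34420428), had 7 UMIs in all, or 0.0496 CPM (0.0199 to 0.102), and 1 thinned nucleus of 8760 held it. *Psmb5* itself stood at 162 CPM.

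Of the transcriptional members, *Irf1* (chromosome 11, 53660812 to 53669200) had 4.02 CPM (3.69 to 4.36), close below *H2-D1*, and the intervals of the pair do not overlap by a narrow margin. *Nlrc5* (chromosome 8, 95160984 to 95253900) had 63 UMIs or 0.446 CPM (0.343 to 0.571), with up to 4 of them in 1 nucleus. *Cd274* (chromosome 19, 29344529 to 29365495) had 66 UMIs in 66 nuclei, 0.468 CPM (0.362 to 0.595), and could not be ordered against *Nlrc5*. The order of the levels over all nuclei was *B2m*, *H2-K1*, *H2-D1*, *Irf1*, *Tap2*, *Tap1*, *Cd274*, *Nlrc5* and *Psmb8*, and apart from *Cd274* and *Nlrc5* all neighbours differed beyond their intervals. This order depends on which nuclei are counted. With at most 5% mitochondrial UMIs *Irf1*, at 4.89 CPM, lay above both heavy chains, and *Cd274* and *Nlrc5*, at 0.598 and 0.532, lay above *Tap1*. Without cluster 1 *H2-D1* and *Irf1*, the latter at 4.10 CPM, both lay above *H2-K1*. Per kilobase of exons the levels ran from 18.2 CPM for *B2m* through 1.97 for *H2-K1*, 1.58 for *H2-D1* and 0.859 for *Irf1* to 0.0145 for *Psmb8*, although counts of transcript ends need not scale with length. The methods name the default Cell Ranger pipeline but do not state the strand setting of the counting. Each member overlaps an annotated gene on the opposite strand. Of those in the table, *Plgrkt*, which shares 296 bases with *Cd274*, had 8621 UMIs and *Gm12216*, which spans *Irf1*, had 176.

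**Figure D1:**
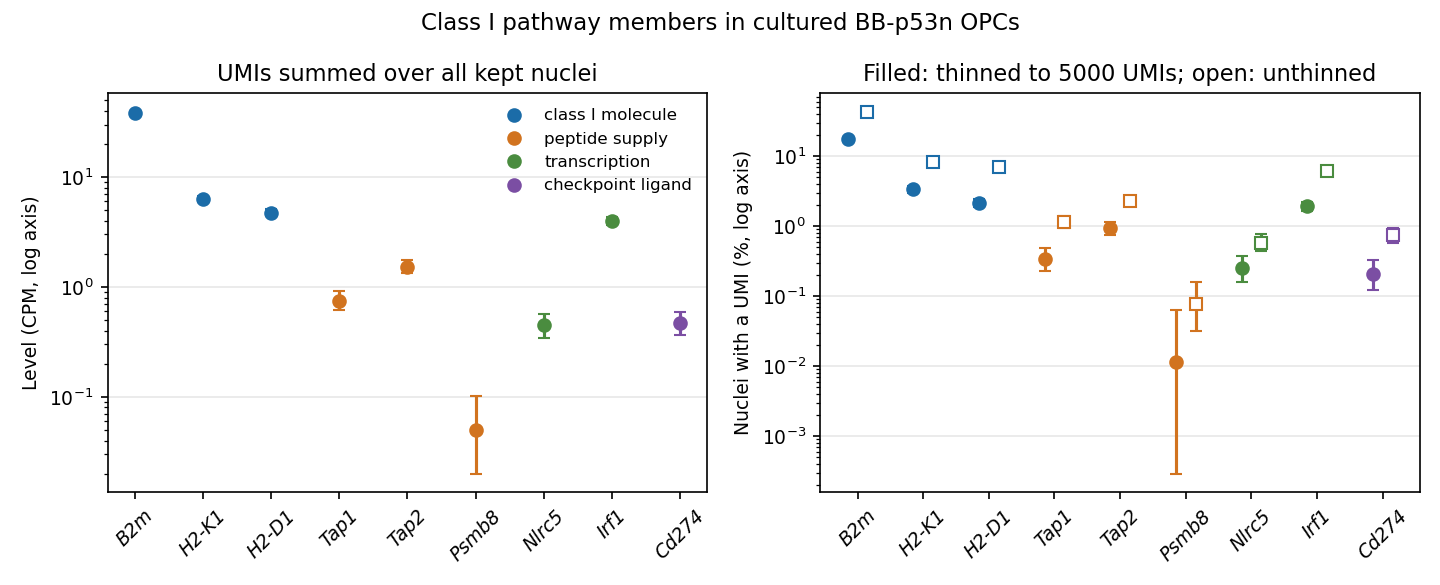
Left, the level of each of the 9 genes in CPM on a log axis with 95% exact Poisson intervals over 8917 nuclei of 1 library. Right, the share of nuclei with a UMI, filled after thinning to 5000 UMIs and open without thinning, with 95% exact binomial intervals; *B2m* leads in both and *Psmb8* is lowest at 7 UMIs.

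Barcodes outside the limits carried the 3 class I chains too. In the 918 barcodes with fewer than 2000 genes, which hold little RNA each, *B2m* stood at 25.6 CPM (18.7 to 34.3), *H2-K1* at 5.69 (2.73 to 10.5) and *H2-D1* at 4.55 (1.97 to 8.97). In the 212 barcodes with more than 8000 genes they stood at 31.4, 5.92 and 4.53 CPM. *B2m* was lower there than in the kept nuclei and the intervals of the heavy chains overlapped, and how much of each nucleus' UMIs was free RNA was not tested.

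Spread between nuclei was compared with that of a Poisson count of the same mean, whose variance over mean is 1. After thinning, the ratio was 1.13 for *H2-K1*, 1.08 for *Nlrc5* (63 UMIs in all), 1.06 for *B2m* and 1.04 for *Tap2*. It was 1.02 for *H2-D1* and 0.993 for *Irf1*. Of 3145 genes within 2-fold of the level of *H2-K1*, 10.5% had a higher ratio. The same share was 17.3% for *Nlrc5*, 29.3% for *B2m*, 34.3% for *Tap2*, 56.9% for *H2-D1* and 88.3% for *Irf1*. *B2m* counts were 0 in 82.1% of nuclei, 1 in 15.7% and 2 in 1.94%, where a Poisson count of the same mean gives a UMI in 18.4% of nuclei against the 17.9% observed. Part of the spread of *H2-K1* lay between clusters, since the ratio was 1.07 within cluster 1 and 1.06 within the other nuclei.

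*H2-K1*, *Tap1* and *Tap2* had the widest ranges between clusters among members with at least 100 UMIs, and *H2-K1* rests on the most UMIs of these. The level of *H2-K1* was 23.4 CPM (21.4 to 25.5, 518 UMIs) in cluster 1, 6.01 (3.20 to 10.3) in cluster 7, and 3.06 to 4.70 in clusters 2 to 6. It was lowest in cluster 0 at 0.935 CPM (0.599 to 1.39, 24 UMIs). Cluster 1 held 15.7% of the UMIs of the library and 58.5% of those of *H2-K1*, a level 7.56-fold (6.60 to 8.67) that of all other nuclei. After thinning, 11.6% of nuclei of cluster 1 had an *H2-K1* UMI against 0.451% of cluster 0, at median depths of 11623 and 12907.5 UMIs (23% and 1.27% unthinned). No cluster is a cell type that should lack class I, so cluster 0 serves as the lowest level at hand.

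*B2m* was highest in the same cluster by a smaller factor. It stood at 62.3 CPM (59.1 to 65.7) in cluster 1, 1.84-fold (1.73 to 1.96) the level of the other nuclei, and at 29.6 to 45.3 CPM in the other 7 clusters. After thinning, 27.2% of nuclei of cluster 1 had a UMI, against 13.5% to 19.0% elsewhere. No cluster passed 2-fold for *B2m*.

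*H2-D1* did not share the pattern of *H2-K1*. In cluster 1 it stood at 3.43 CPM (2.70 to 4.29), or 0.688-fold (0.535 to 0.875) the level of the other nuclei. It was highest in cluster 6 at 8.07 CPM (6.54 to 9.85) and cluster 2 at 7.15 (6.04 to 8.42), and lowest in cluster 7 at 1.85 (0.504 to 4.74, 4 UMIs), cluster 3 at 2.11 and cluster 0 at 2.77. In nuclei of at most 5% mitochondrial UMIs, clusters 6, 4 and 2 led at 9.91, 6.88 and 6.44 CPM, from 7, 20 and 10 UMIs. Set against each other inside each cluster, where depth cancels, *H2-K1* made up 87.2% (95% exact binomial interval 84.2 to 89.8) of the UMIs of the pair in cluster 1, 25.3% (16.9 to 35.2) in cluster 0, 29.95% (23.8 to 36.7) in cluster 2 and 33.8% (26.2 to 42.1) in cluster 6. In clusters 3, 4, 5 and 7 the share was 59.3%, 35.6%, 45.1% and 76.5%, the last from 17 UMIs. The promoters printed above hold the same motifs, and promoter use was not measured. With nuclei of at most 5% mitochondrial UMIs only, the *H2-D1* ratio of cluster 1 was 1.15 (0.532 to 2.20, 10 UMIs), so its direction does not hold there, while that of *H2-K1* was 10.7 (7.17 to 15.9).

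**Figure D2:**
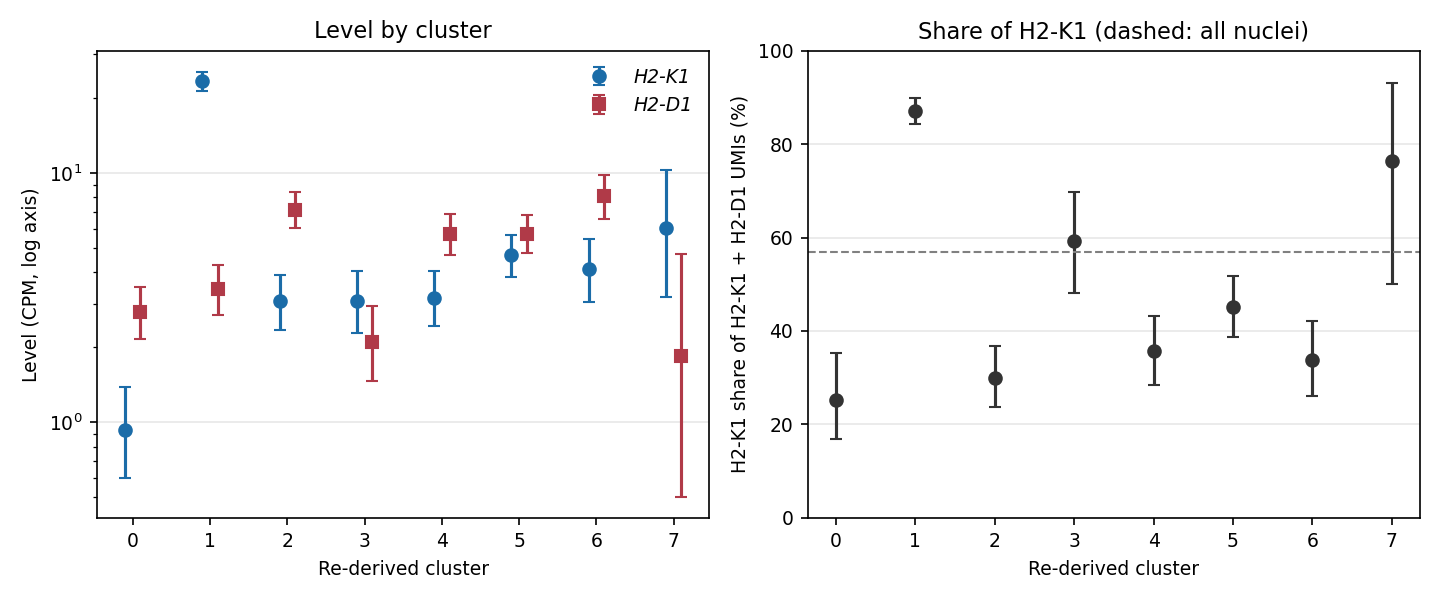
Left, *H2-K1* and *H2-D1* in each of the 8 re-derived clusters in CPM on a log axis with 95% exact Poisson intervals. Right, the share of *H2-K1* among the UMIs of both genes with 95% exact binomial intervals; it is 87.2% in cluster 1 and 25.3% in cluster 0, against 57.0% in all nuclei (dashed).

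Both subunits of the peptide transporter were higher in clusters 1 and 7. *Tap2* stood at 4.42 CPM (3.59 to 5.39) in cluster 1, 4.50-fold (3.40 to 5.94) the other nuclei, and at 8.32 (4.93 to 13.2, 18 UMIs) in cluster 7, the smallest cluster. *Tap1* stood at 1.81 CPM (1.29 to 2.46) in cluster 1, 3.26-fold (2.14 to 4.89), and at 5.09 (2.54 to 9.10, 11 UMIs) in cluster 7. With at most 5% mitochondrial UMIs the *Tap1* ratio of cluster 1 rested on 3 UMIs and its interval, 0.880 to 25.5, held 1. In the other clusters *Tap2* lay between 0.312 and 1.32 CPM and *Tap1* between 0.241 and 0.757. Cluster 7 was defined by *Bnc2*, *Arhgap24* and *Trpm3*, and several marker lists were highest there: neurons at 33.3 CPM, astrocytes at 20.8, microglia and leukocytes at 17.1 and fibroblasts and pericytes at 5.55. Their part in the *Tap1* and *Tap2* levels was not tested. Of the 7 UMIs of *Psmb8*, 5 were in cluster 1.

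The transcriptional members *Irf1* and *Nlrc5* were flatter in clusters 0 to 6. *Irf1* was highest in cluster 3 at 5.66 CPM (4.57 to 6.92) and lowest in cluster 4 at 3.06 (2.34 to 3.94), and cluster 1 was at 3.57 (2.82 to 4.44). This order changed in nuclei of at most 5% mitochondrial UMIs. There *Irf1* was highest in cluster 2 at 7.09 CPM (11 UMIs) and lowest in cluster 6 at 1.42 (1 UMI). *Nlrc5* lay between 0.336 and 0.632 CPM in clusters 0 to 6 with overlapping intervals, and had no UMI in cluster 7, where 3 counts of the total allow up to 1.39 CPM. *Cd274* was highest in cluster 3 at 1.02 CPM (0.596 to 1.64, 17 UMIs), 2.60-fold (1.40 to 4.60) the other nuclei, and stood at 0.271 (0.0994 to 0.590, 6 UMIs) in cluster 1.

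**Figure D3:**
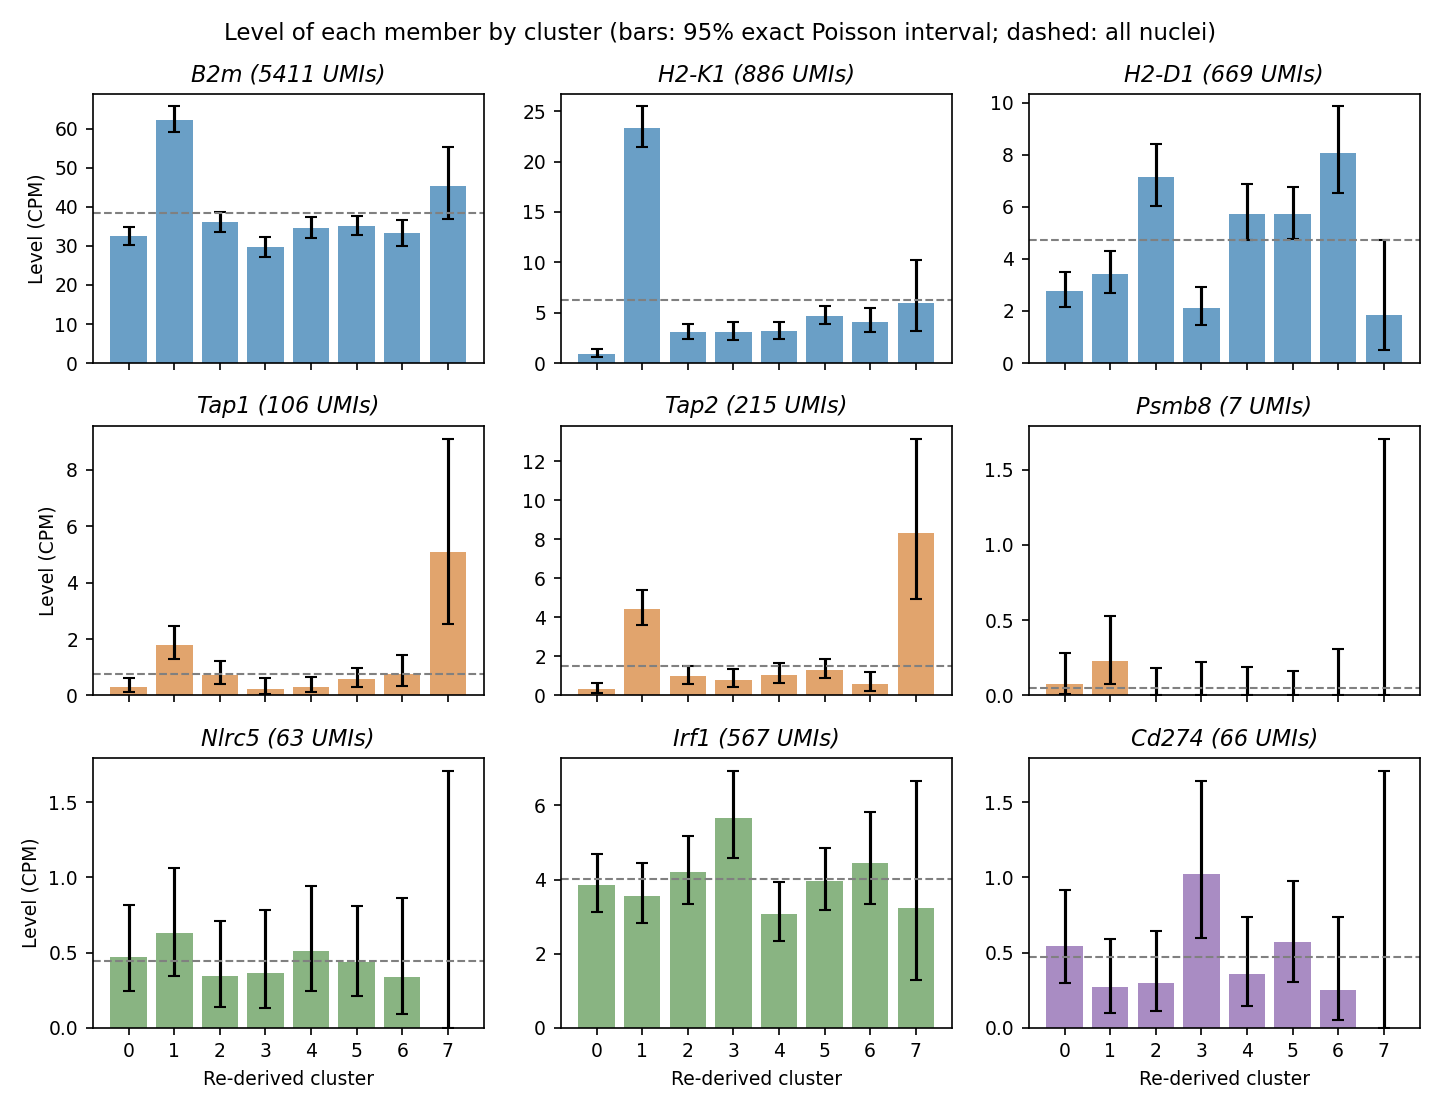
Level of each of the 9 genes in CPM by re-derived cluster, with 95% exact Poisson intervals and the level of all nuclei as a dashed line. *H2-K1* stands at 23.4 CPM in cluster 1 and 0.935 in cluster 0, *Tap1* and *Tap2* are highest in cluster 7 and next in cluster 1, and *H2-D1* is highest in clusters 6 and 2.

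Among the 6 members with at least 100 UMIs, 3 (*H2-K1*, *Tap1* and *Tap2*) were at least 2-fold higher in cluster 1 and 0 were at least 2-fold lower, where of all 14531 genes with that many UMIs 10.4% were higher and 12.1% lower. *Tap1* reached 100 UMIs only with the 40 of cluster 1, since the other nuclei held 66, so its place in this count is no support. *H2-K1*, *Tap1* and *Tap2* were also at least 2-fold lower in cluster 0, against 5.53% of all genes. This was not particular to cluster 0. In cluster 3 their ratios were 0.458, 0.294 and 0.482, with *H2-D1* at 0.414, and *H2-K1* was at 0.449 in cluster 2 and 0.467 in cluster 4. The other nuclei in these ratios include cluster 1, and the share of all genes is given for cluster 0 only. With *H2-D1*, 4 of the 6 passed 2-fold in either direction in some cluster, against 37.5% of all genes. The median log2 ratio of cluster 1 over all tested genes was 0.15. Only *Nlrc5* of the members was among the variable genes that built the clusters, and with all listed genes left out of the clustering the ratio of *H2-K1* was 7.59 (6.63 to 8.70). In cluster 1 the microglia and leukocyte markers summed to 9.03 CPM against 8.19 elsewhere and the fibroblast and pericyte markers to 0.542 against 0.597. Endothelial markers summed to 14.6 CPM against 10.4, with *Tek* at 7.18 against 0.840 and *Pecam1* at 1.99 against 6.10. Neuronal markers summed to 22.6 CPM against 13.3, with *Rbfox3* at 15.8 against 1.84 and *Snap25* at 2.57 against 9.30. Astrocyte markers were lower at 5.96 CPM against 17.1. The part of these lists in the result was not tested.

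Pathway genes were counted from 15 lists of 147 genes, of which 143 are in the table, 126 had a UMI and 69 reached 1 CPM. Of the 71 with at least 100 UMIs, 12 (16.9%) were at least 2-fold higher in cluster 1 and 4 (5.63%) at least 2-fold lower, against 10.4% and 12.1% of all genes with that many UMIs. Those higher were *Cd1d1*, *Tapbp*, *Tapbpl*, *Ifnar1*, *Tyk2*, *Irf3*, *Gbp3*, *Gbp7*, *Parp9*, *Sting1*, *Tlr3* and *Ulbp1*, and those lower were *Ifi27l2a*, *Mx2*, *Raet1d* and *Raet1e*. They are named because they passed the fold, after their values were seen. *Parp9* and *Ulbp1* reached 100 UMIs only with those of cluster 1, which held 124 of 181 and 82 of 168, so their place in the 12 is no support.

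Other class I chains summed to 20.3 CPM. *H2-T22*, a nonclassical chain, stood at 12.5 CPM (12 to 13.1), above *H2-K1*, and was nearly even at 10.6 to 14.7 CPM over the 8 clusters. *Cd1d1*, which presents lipids, stood at 10.3 CPM in cluster 1 and 3.59 elsewhere. *Mr1*, which presents small metabolites to MAIT cells, had 75 of its 96 UMIs in cluster 1, at 3.39 CPM against 0.176, a ratio of 19.2 (11.7 to 32.8). *H2-T24*, with 95 UMIs, stood in cluster 1 at 0.361 against 0.731 CPM, a ratio of 0.494 (0.207 to 1.02). *H2-Q4*, which shares transcript windows with *H2-K1* and is named for that, had 47 of its 86 UMIs in cluster 1. Its ratio there was 6.47 (4.14 to 10.2), and the part of shared reads in it was not tested. *H2-Q10*, which also shares such windows, had 3 UMIs. *H2-Q1*, *H2-Q2*, *H2-Q6*, *H2-T10* and *H2-M2* were at 0.

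The chaperones that load the peptide were abundant: *Canx* stood at 413 CPM, *Calr* at 355 and *Pdia3* at 303, with ratios of 1.01 to 1.25 in cluster 1. These serve glycoproteins in general. The dedicated loading factors were low and higher in cluster 1, with *Tapbp* (tapasin) at 10.6 against 4.69 CPM, a ratio of 2.26 (1.93 to 2.64), *Tapbpl* at 2.84 against 1.22, and the trimming peptidase *Erap1* at 12.8 against 6.54, a ratio of 1.95 (1.70 to 2.24).

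Standard and inducible proteasome subunits lay far apart. *Psmb6*, *Psmb5* and *Psmb7* stood at 218, 162 and 107 CPM. Of their inducible counterparts, *Psmb9* stood at 0.262 CPM (37 UMIs) and *Psmb10* at 16.9, and the activator subunits *Psme1* and *Psme2* at 26.1 and 34.3. None of the 3 immunoproteasome genes with at least 100 UMIs passed 2-fold in cluster 1. Of all genes with that many UMIs, 10.4% were at least 2-fold higher there and 12.1% lower. *Psmb9* stood in cluster 1 at 0.587 against 0.202 CPM.

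Genes for the factors that bind class I promoters were led by *Creb1* at 90.9 CPM, *Atf1* at 71.0, *Nfyc* at 64.0 and *Rfxap* at 45.7. Of the 8 genes, 0 passed 2-fold in cluster 1, where 10.4% of all genes with at least 100 UMIs were higher and 12.1% lower. The interferon receptors and their kinases were also present, with *Jak2* at 62.1 CPM, *Jak1* at 55.5, *Ifnar2* at 34.8 and *Ifngr1* at 29.1. In cluster 1 *Ifnar1* stood at 40.9 against 20.4 CPM and *Ifnar2* at 54.2 against 31.2, a ratio of 1.74. Of the other IRF genes, *Irf2* stood at 49.2 CPM and *Irf3* at 7.28, with *Irf3* at 15.1 against 5.82 in cluster 1. Interferons themselves gave 4 UMIs in all, 2 of *Ifnk*, 1 of *Ifnz* and 1 of *Ifna2*, and *Ifnb1*, *Ifna1*, *Ifna4*, *Ifna5*, *Ifng*, *Ifne*, *Ifnl2* and *Ifnl3* were at 0, where 3 counts of the total allow up to 0.0213 CPM each.

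The 42 interferon-stimulated genes, none of them a member, summed to 88.4 CPM (86.9 to 89.96), with 39 detected and 13 at 1 CPM or more. *Ifi27* at 28.9 CPM, *Ifit2* at 16.3, *Xaf1* at 12.8 and *Irgm1* at 7.63 gave most of it. In cluster 1 the list summed to 126 CPM against 81.3 elsewhere, a ratio of 1.55 (1.49 to 1.62). Its genes did not move as one between clusters. Of 13 with at least 100 UMIs, 3 were at least 2-fold higher in cluster 1 and 2 lower, against 10.4% and 12.1% of all genes. The 3 include *Parp9*, which reached 100 UMIs only with those of cluster 1. *Ifit2* was highest in cluster 0 at 37.3 CPM (34.9 to 39.7), where *H2-K1* was lowest, against 8.07 to 15.3 in the other 7 clusters. The interferon-inducible GTPases *Gbp7* and *Gbp3* stood in cluster 1 at 14.5 against 0.95 CPM, a ratio of 15.3 (12.3 to 19.1), and at 10.2 against 1.35, a ratio of 7.54 (6.13 to 9.29). *Parp9* stood at 5.60 against 0.479. The antiviral GTPase *Mx2* had 2 UMIs in cluster 1, at 0.0903 against 1.72 CPM, a ratio of 0.0524 (0.00630 to 0.192). Of the 7 genes of nucleic acid sensing with at least 100 UMIs, 2 were at least 2-fold higher in cluster 1 and 0 lower. Of all genes with that many UMIs, 10.4% were higher and 12.1% lower by that fold. *Sting1*, the adaptor of cytosolic DNA sensing, stood at 85.7 against 15.5 CPM, a ratio of 5.53 (5.18 to 5.90), and *Tlr3* at 14.9 against 4.19, while *Tbk1* stood at 56.8 against 43.8. *Cgas*, the DNA sensor upstream of *Sting1*, was lower there at 0.948 against 1.54 CPM, a ratio of 0.616 (0.373 to 0.971) from 204 UMIs.

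**Figure D4:**
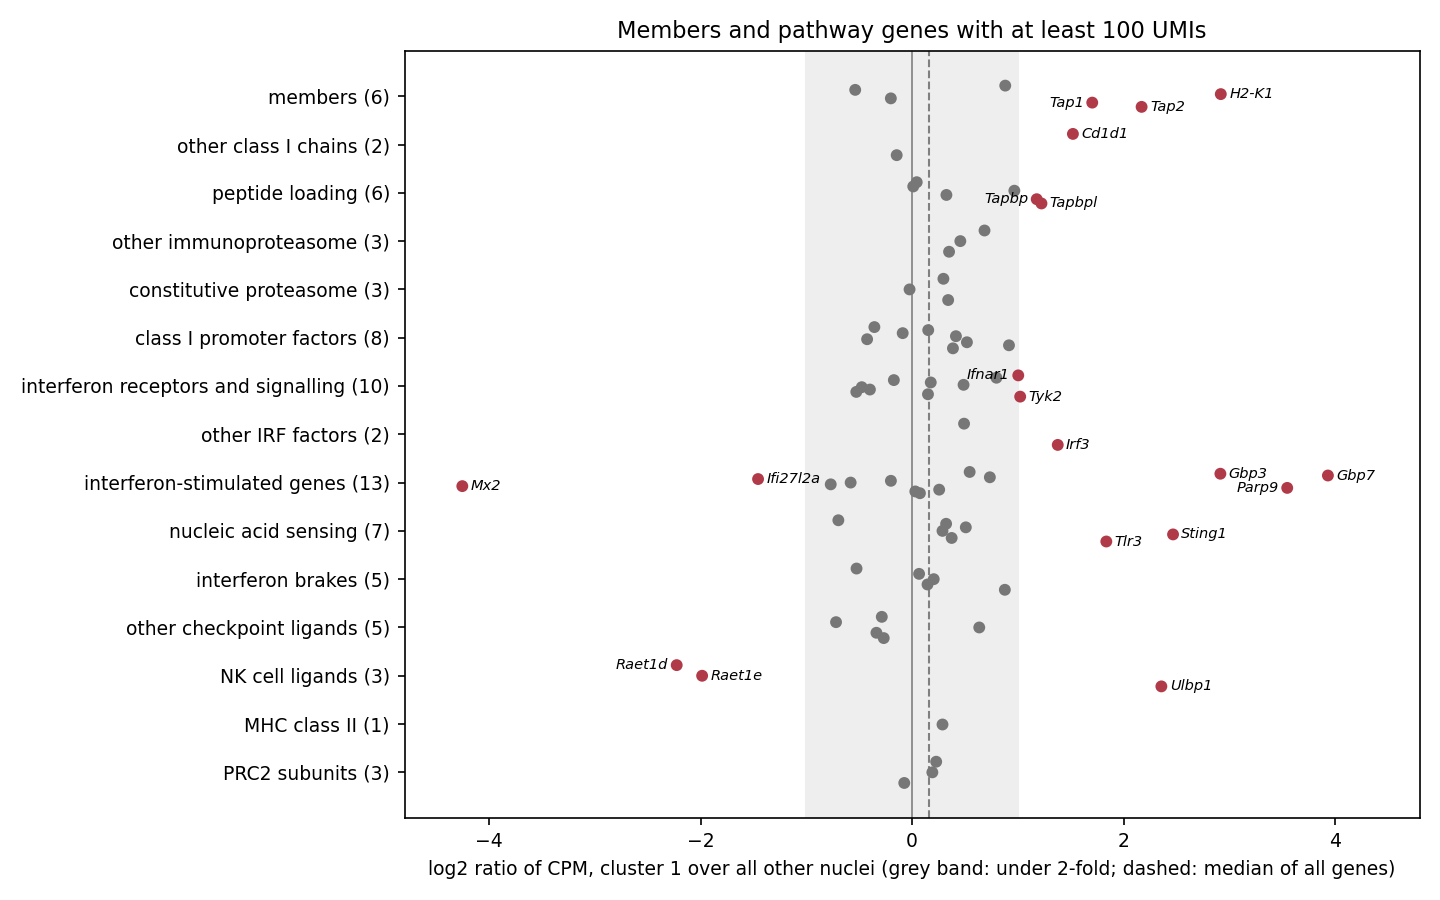
Log2 ratio of CPM in cluster 1 over all other nuclei for the members and pathway genes with at least 100 UMIs, by list with the number of genes shown. Genes past 2-fold are red and named: *Gbp7*, *Parp9*, *H2-K1* and *Gbp3* are farthest to the right and *Mx2* farthest to the left, and the dashed line is the median of all genes, 0.15.

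The brakes and ligands that act beside class I were counted too. *Pias1* stood at 101 CPM, *Ptpn1* at 80.1, *Ptpn2* at 45.7 and *Socs3* at 2.25. Among checkpoint ligands *Cd47*, the signal against phagocytosis, stood at 114 CPM and *Cd276* at 33.7, both well above *Cd274*, and *Cd47* was lower in cluster 1 at 73.8 against 121 CPM, a ratio of 0.607. MHC class II genes other than *H2-DMa* at 6.36 CPM were near 0, with *Cd74* at 0.298, *Ciita* at 0.241 and *H2-Aa* at 0. The PRC2 genes, whose complex can silence class I genes, stood at 276 CPM for *Ezh2*, 170 for *Suz12* and 51.4 for *Eed*, with ratios in cluster 1 of 0.949 to 1.17.

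Nuclei were next grouped by the UMIs they held of the interferon-stimulated list after thinning. There were 5731 nuclei with 0, 2324 with 1 and 705 with 2 or more. The 9 genes together stood at 57.1, 62.6 and 73.5 CPM in these groups, a ratio of 1.29 (1.12 to 1.47) for 2 or more over 0. *H2-K1* stood at 6.63, 7.57 and 11.9 CPM, a ratio of 1.80 (1.25 to 2.52), and *B2m* at 38.8, 42.4 and 50.5, a ratio of 1.30 (1.10 to 1.52). *H2-D1* stood at 4.57, 4.56 and 2.55 CPM, a ratio of 0.558 (0.250 to 1.09). The share of nuclei from cluster 1 was 16.5%, 22.6% and 32.6% in the same groups. Within cluster 1 the ratio of *H2-K1* was 1.25 (0.833 to 1.84) and that of *B2m* 1.18 (0.918 to 1.51), both with 1 inside the interval, and the ratio of the 9 genes was 1.08 both without cluster 1 and in nuclei of at most 5% mitochondrial UMIs.

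Cell cycle phases were called from S and G2/M genes that hold no member, and *Irf1* was higher in nuclei called S. It stood at 6.11 CPM (5.28 to 7.03) in the 2300 nuclei called S, 3.35 (2.78 to 4.0) in G1 and 3.43 (3.02 to 3.88) in G2/M, with S over the other phases at 1.80 (1.5 to 2.14). Of 14531 genes with at least 100 UMIs, 1.57% had a ratio as high. The genes used to call the phases were not taken out of this set, so part of the share follows from the calling. Inside clusters 0, 1, 2, 3, 5 and 6 the ratio was 2.51, 1.87, 1.56, 1.67, 1.52 and 1.69, and the lower bound was above 1 in clusters 0, 1 and 3. Clusters 4 and 7 gave too few UMIs to compare. Cluster 4 had 1 nucleus in S, with 1 UMI. Cluster 7 had 46, with 0 UMIs against 7 in the other phases, a ratio of 0 (0 to 2.12). *B2m* stood at 38.7, 39.8 and 37.5 CPM in S, G1 and G2/M and *H2-K1* at 6.64, 5.65 and 6.43, so neither differed beyond its intervals, and the *Nlrc5* ratio for S was 1.82 (1.03 to 3.13) from 22 UMIs. The gene *Gm12216* on the strand opposite *Irf1* had 176 UMIs in all and its part in the result was not tested.

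**Figure D5:**
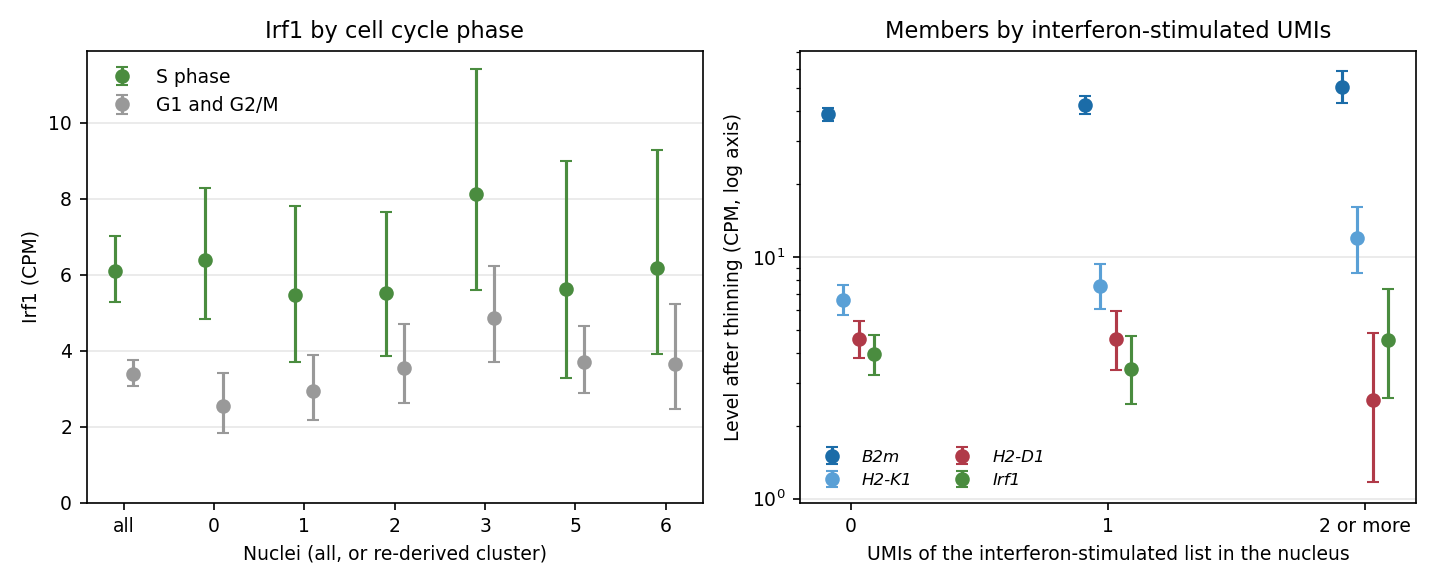
Left, *Irf1* in CPM in nuclei called S and in the other phases, over all nuclei and within clusters with at least 50 nuclei in S, with 95% exact Poisson intervals; S lies higher in all 6 clusters drawn. Right, 4 members in nuclei with 0, 1 or 2 and more UMIs of the interferon-stimulated list, in CPM on a log axis; *H2-K1* goes from 6.63 to 11.9 CPM and *H2-D1* from 4.57 to 2.55.

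Over all nuclei, levels also differed by mitochondrial content. Where mitochondrial genes gave at most 5% of the UMIs (1954 nuclei), *H2-K1* stood at 3.56 CPM against 7.01 in the rest and *H2-D1* at 3.49 against 5.08, while *Irf1* stood at 4.89 against 3.78. Clusters 0 and 3 held 695 and 597 of the nuclei in this class, and only 189 of the 1733 nuclei of cluster 1 were in it. Within cluster 1 the ratio of *H2-K1*, low over high mitochondrial content, was 0.883 (0.652 to 1.17), and without cluster 1 it was 0.571 (0.419 to 0.764). For *H2-D1* the ratio was 0.580 (0.331 to 0.984) within cluster 0. Within each of the others it lay between 0.894 and 1.91, with 1 inside the interval. For *Irf1* it ran from 0.305 to 2.55 within clusters, and only that of cluster 5, 1.83 (1.08 to 3.00), had an interval without 1. The part of the cluster mix in the values over all nuclei was not tested.

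Members were rarely found in the same nucleus. *B2m* and *H2-K1* were both found in 70 thinned nuclei where independence gives 52.9, a ratio of 1.32 (1.03 to 1.67). Within cluster 1 the numbers were 54 and 53.7 and in the other clusters 16 and 15.4, which are ratios of 1.01 and 1.04. *H2-K1* and *Tap2* shared 9 nuclei against 2.76, a ratio of 3.26 (1.49 to 6.19), all of them in cluster 1, where the ratio was 1.90 (0.868 to 3.60). *H2-D1* and *Irf1* shared 9 nuclei against 3.62, of which 9 against 3.35 were outside cluster 1. Over 8760 nuclei of this library, the genes of at least 20 CPM most like the sum of *B2m*, *H2-K1* and *H2-D1* by Pearson r of log counts were *Xist* at 0.171, *Igfbp2* at 0.153, *Igfbp4* at 0.136, *Sparc* at 0.133 and *Lamb1* at 0.133. All 5 were themselves higher in cluster 1, by 3.70-fold to 25.4-fold, and within cluster 1 their r lay between 0.00697 and 0.0789, values too weak to order.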

How the data were processed

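Nuclei of cultured BB-p53n OPCs were profiled with 10x 3′ chemistry. Per the labels and methods, the authors counted UMIs with Cell Ranger 8.0.1 on mm39 and deposited raw counts per gene and barcode, with no normalization. Here barcodes with 2000 to 8000 genes were kept and UMI counts were summed and divided by the total as CPM. Intervals are 95% exact Poisson for levels, exact conditional for ratios and exact binomial for shares, computed in Python 3.11.15 with scipy 1.17.1 and tested on simulated data. With 1 library no test was run. Clusters were re-derived with Seurat 5.3.0 in R 4.3.3 (scale factor 1000, 3000 variable genes, regression on total counts, PCs 1 to 20, 200 neighbors, resolution 1.0), so they may differ from those of the study, which lists 1954 nuclei after filtering, the number that at most 5% mitochondrial UMIs leaves here, and phases were called with its 43 S and 54 G2/M genes. Scrublet in scanpy 1.11.5 called 0 nuclei, which had not worked, so doublets were not removed. Positions are GENCODE vM39 on GRCm39, which matched 33185 of 33696 genes by identifier. The genes, lists and naming rule (the members, the 4 genes with the most UMIs per list and those at 0 in the interferon, class II and checkpoint lists, the 5 genes most like the class I chains and up to 3 defining genes per cluster) were chosen with earlier results of these data known. Alternatives changed the barcode, mitochondrial and Scrublet limits, the thinning, the weighting and the clustering. Brains with tumors are not analysed here. 1 marker list is not reported here.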

Additional observations from a re-analysis of the deposited data

How the results depend on the processing

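Of 27 summary values under the alternatives, 18 stayed inside the 95% interval of the reported value (for counts of genes, within 1.5-fold of it) and 9 fell outside the interval, for which the cause was not tested. The level of the 9 genes, 56.6 CPM, was 50.6 with at most 5% mitochondrial UMIs, 48.5 without cluster 1 and 58.7 as a mean over nuclei. The share of nuclei with a member, 24.8%, was 16.1% with thinning to 3000 UMIs and 53.7% with none, where the depth itself sets it, 22.9% with at most 5% mitochondrial UMIs and 21.3% without cluster 1. The ratio by interferon-stimulated UMIs, 1.29, was 1.08 both with at most 5% mitochondrial UMIs and without cluster 1. Leaving out cluster 1 or cluster 5, and the values within clusters, were chosen after seeing the data. The ratio of *H2-K1* in cluster 1 ran from 7.51 to 10.7 over 6 alternatives, that of *B2m* from 1.84 to 1.88, *Tap2* from 4.50 to 6.15 and *Tap1* from 2.95 to 5.44 (the last with an interval of 0.880 to 25.5), and that of *H2-D1* from 0.658 to 1.15. Of the values for single genes, 100 held and 46 moved. *Psmb8*, *Nlrc5* and *Cd274* have 7 to 66 UMIs, so their values by cluster or phase rest on few UMIs and have wide intervals. Cluster 5 was deep, with a median of 30276 UMIs and 65.9% of its nuclei among the highest Scrublet scores, and without it the ratio of *H2-K1* was 8.62. No paired analysis was possible because 1 library was analysed and it has no partner.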

Other observations

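The ligands of the activating NK cell receptor NKG2D, which stressed or transformed cells can show, differed in order between clusters. *Raet1e* was highest in cluster 7 at 17.1 CPM (95% exact Poisson interval 12 to 23.6), in cluster 6 at 13.3 (11.3 to 15.5) and in cluster 2 at 10.4 (9.0 to 11.9), and lowest in clusters 1 and 3 at 1.76 and 1.75. *Raet1d* followed the same order at its ends, with 6.94 CPM (3.88 to 11.4) in cluster 7 and 0.316 (0.127 to 0.651) in cluster 1. *Ulbp1* was highest in cluster 1 at 3.70 CPM (2.94 to 4.59), against 0.357 to 1.39 in the other 7 clusters. The values are of 1 library and were not tested.

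*H2-DMa*, a class II chaperone, stood at 15.7 CPM (10.9 to 22, 34 UMIs) in cluster 7 and at 5.36 to 7.49 in the other 7 clusters. *Cxcl10*, a chemokine of the interferon-stimulated list, had 40 UMIs in cluster 1, or 1.81 CPM (1.29 to 2.46), and between 0 and 3 UMIs in each of the others, and it was picked after its values were seen.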
